A study of Mus musculus with 38 samples.

Results

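The 37 genes described here code for nucleolar proteins and assembly factors that make the cytosolic ribosome. They were chosen as a named list of gene symbols, and all 37 were measured among the 22485 genes of the array. Where several probes stood for a gene, the probe with the highest mean over all samples was used, which decided the probe for 11 genes. The livers came from male mice aged 11 to 12 weeks, whose background mixes FVB/N with C57Bl/6. IR floxed mice carry a floxed insulin receptor gene (Insr) and served as controls of the LIRKO mice, in which albumin-Cre removes the receptor in hepatocytes. IR/FoxO1 floxed mice also carry a floxed Foxo1 gene and served as controls of the LIRFKO mice, in which albumin-Cre removes both. Cells that do not express albumin keep both genes, so whole-liver RNA still holds their transcripts. Every mouse had been fasted, described in the labels both as overnight and as 24 h, and was then killed, refed for 6 h, or given glucose and killed 60 min later. IR floxed mice numbered 4 fasted, 4 refed and 3 after glucose. LIRKO and LIRFKO mice numbered 3, 4 and 3 in each genotype, and IR/FoxO1 floxed mice numbered 3 fasted and 3 refed, with none after glucose.

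A ribosome starts in the nucleolus, where RNA polymerase I copies the ribosomal RNA genes into a long precursor. Small nucleolar ribonucleoproteins modify and help to cut that precursor, and separate sets of assembly factors build it, with ribosomal proteins, into the small and the large subunit. The process uses much of a growing cell's energy, and nutrient and insulin signalling through mTORC1, together with the transcription factor Myc, is known to raise it, while liver loses ribosomes on fasting and rebuilds them on feeding.

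Values are deposited log2 intensities of single dye channels, column medians lay between 5.72 and 5.78, and the 37 members lay above the median gene level of 6.17 when averaged over all samples. Differences are log2 differences ± SE from limma, fitted over 37 samples with dye as a term and array as a block, so they can differ slightly from plain differences of group means. A gene is said to have risen or fallen where its p, adjusted by Benjamini-Hochberg over all 22485 genes, was under 0.05. Counts at an unadjusted p under 0.05 are given without the share over all genes, so they do not show an excess over other genes. Insr fell by 1.76 ± 0.23 on the log2 scale in fasted LIRKO against IR floxed livers, with an adjusted p of 1.32e-05. Foxo1 was 6.81, 6.83 and 7.12 in fasted LIRFKO livers against 9.94, 10.32 and 10.58 in fasted LIRKO livers. One library went against its label. The library labelled IRF.fl_Fast_523, a fasted IR/FoxO1 floxed control, had a Foxo1 value of 6.77, whereas the other 2 of its group had 10.17 and 10.57. Its Insr value was 6.90. Where leaving that library out ended a call on refeeding of IR/FoxO1 floxed livers, this is said beside the call. Single mice are named by their labels, in which IR.fl stands for IR floxed, IR.KO for LIRKO, IRF.fl for IR/FoxO1 floxed, IRF.KO for LIRFKO and GTT for glucose. Defining markers of hepatocytes averaged between 14.5 and 15.1 over the groups, as the tissue label has it, and those of Kupffer cells and macrophages between 8.32 and 9.67. Pancreatic acinar markers ranged widely between livers of some groups. They averaged 5.94 to 11.7 in refed LIRFKO livers and 6.07 to 11.1 in IR floxed livers after glucose. In fasted IR floxed livers they averaged 5.97 to 9.49, and in fasted IR/FoxO1 floxed livers 5.96 to 7.81. The part of pancreatic tissue in the results was not tested. In bulk liver, fewer cells of a type and less RNA per cell cannot be told apart.

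Averaged over the 37 genes, control livers were lower when fasted than when refed, with no overlap. Fasted IR floxed livers had means of 8.83, 8.84, 8.95 and 9.09, and refed ones 9.17, 9.22, 9.25 and 9.41. Fasted IR/FoxO1 floxed livers had 8.84, 8.91 and 8.92, the lowest being the library labelled IRF.fl_Fast_523, and refed ones 9.26, 9.29 and 9.38. LIRKO livers lay in a narrow band in all 3 states. Their fasted means of 9.24, 9.31 and 9.37 overlapped the refed means of 9.26, 9.31, 9.38 and 9.45 and lay above every fasted control. LIRFKO livers had fasted means of 8.90, 9.06 and 9.15 and refed means of 9.20, 9.24, 9.44 and 9.50, again without overlap. After glucose the LIRFKO means were 8.82, 8.82 and 8.91, below the LIRKO means of 9.17, 9.25 and 9.41. No test was made on these means.

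**Figure D1:**
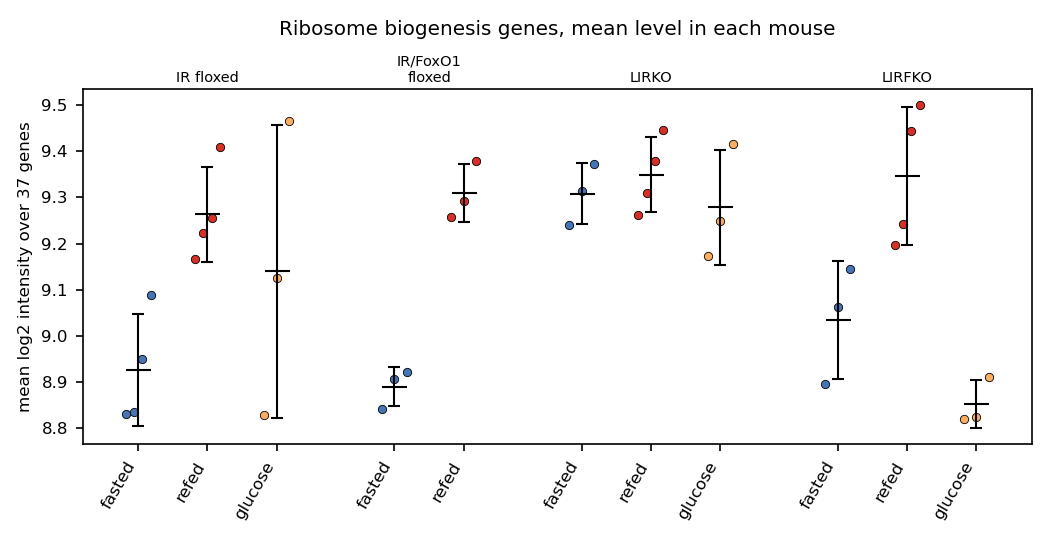
Mean log2 intensity over the 37 ribosome biogenesis genes (vertical axis) in each liver, by genotype and feeding state (horizontal axis), with bars at the group mean ± SD. Fasted floxed livers sit between 8.83 and 9.09 and refed ones between 9.17 and 9.41, whereas fasted LIRKO livers lie at 9.24 to 9.37.

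Refeeding raised 10 of the 37 genes in IR floxed livers and lowered 0, where 3.61% of all genes were called, 2.12% higher and 1.49% lower. The genes that rose were Wdr12, Nolc1, Gnl3, Grwd1, Tsr1, Nop56, Nop58, Rrp12, Bop1 and Nop2. In IR/FoxO1 floxed livers 10 rose (2.02% of all genes) and 1 fell (1.52%), where 3.54% of all genes were called. Those that rose there were Bysl, Bop1, Wdr12, Tsr1, Grwd1, Dkc1, Nop56, Nop58, Noc4l and Rrp9, and Rcl1 fell. The control lines shared 6 of the genes that rose, 60.0% of each list. Of these, Grwd1, Nop56, Nop58 and Tsr1 lost their IR/FoxO1 floxed call without IRF.fl_Fast_523, while Bop1 and Wdr12 kept it. The median difference over the members was 0.35 in IR floxed and 0.42 in IR/FoxO1 floxed livers, while the median over all genes was -0.0026 in both. In LIRFKO livers Nolc1 and Bysl rose and 0 fell, where 1.81% of all genes were called, 0.987% higher and 0.823% lower, and the median was 0.30. In LIRKO livers limma called 0 of 37, where 1.85% of all genes were called (0.983% higher, 0.867% lower). At an unadjusted p under 0.05 there were 4 members, against 25, 21 and 18 in the other genotypes. Those counts lack the share over all genes, so they do not show a difference between genotypes that is particular to the members. The LIRKO median was 0.08. All refed IR/FoxO1 floxed mice carry lower mouse numbers than the fasted ones, and all refed LIRKO mice carry higher ones. In these genotypes refeeding and the series of mice cannot be told apart. In IR floxed and LIRFKO mice the number ranges of fasted and refed mice overlapped. The LIRFKO overlap rests on IRF.KO_Refed_524, and the other refed LIRFKO mice carry lower numbers than every fasted one.

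In IR floxed livers the count of 10 became 5 without IR.fl_Fast_491, and 6 without IR.fl_Fast_542 or IR.fl_Refed_562 or IR.fl_Refed_566. In IR/FoxO1 floxed livers the count of 11 became 4 and the median 0.41 without IRF.fl_Fast_523, with the count at 3 without IRF.fl_Refed_472, 5 without IRF.fl_Fast_516, 6 without IRF.fl_Refed_473 and 7 without IRF.fl_Fast_533. In LIRFKO livers the count of 2 became 0 without IRF.KO_Fast_518 or IRF.KO_Fast_525 or IRF.KO_Refed_469 or IRF.KO_Refed_524, and 1 without IRF.KO_Fast_519. Within single slides that held both states, the median difference was 0.33 and 0.66 in IR floxed, 0.48 in IR/FoxO1 floxed, 0.34 in LIRFKO, and 0.20 and -0.02 in LIRKO livers. The IR/FoxO1 floxed value sets IRF.fl_Refed_473 against IRF.fl_Fast_516 and IRF.fl_Fast_523, the library that went against its label.

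**Figure D2:**
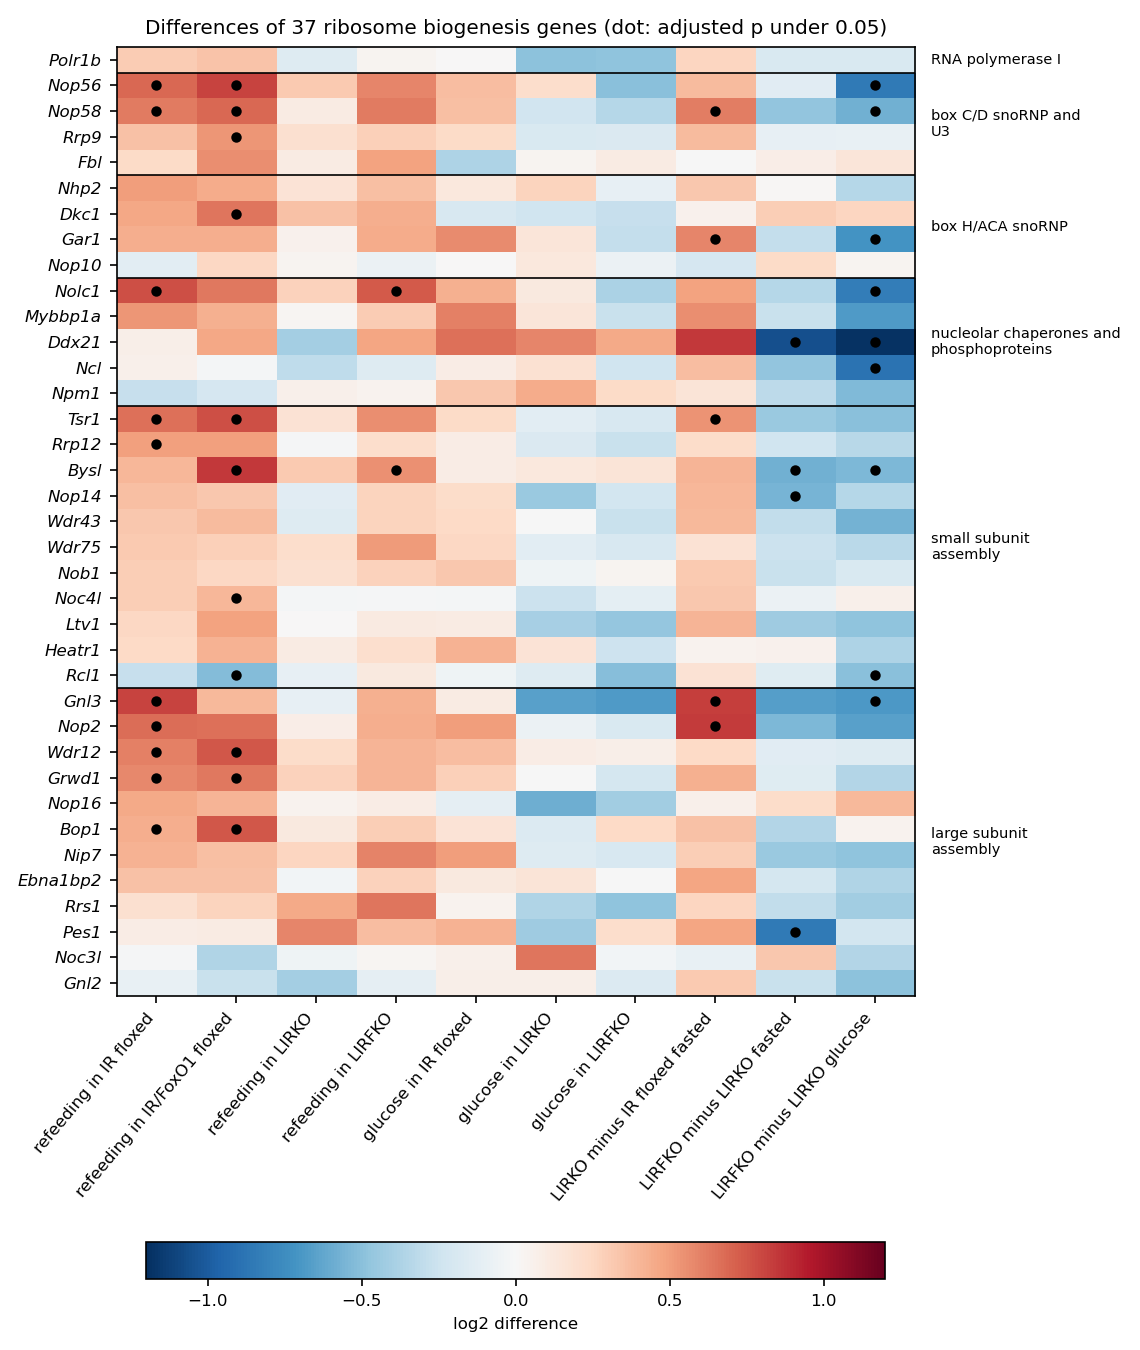
Log2 difference (colour scale) of each of the 37 genes (rows, ordered by role) in 10 comparisons (columns); dots mark an adjusted p under 0.05. The refeeding columns of both floxed lines carry 10 and 11 dots, the LIRKO refeeding column carries 0, and the LIRFKO minus LIRKO glucose column carries 9, all lower.

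The box C/D proteins hold the guide RNAs that direct methylation of ribosomal RNA, and U3, a member of that class, is needed for the first cuts of the precursor. Nop56 and Nop58, paired core proteins of the particle, rose in both control lines. Nop56 was 9.43, 9.69, 9.90 and 9.98 in fasted IR floxed livers and 10.20, 10.33, 10.46 and 10.88 in refed ones, and 9.51, 9.68 and 9.98 against 10.54, 10.57 and 10.69 in IR/FoxO1 floxed livers. No refed control overlapped a fasted one. In IR floxed livers the call was lost in 4 of 8 fits that left out 1 mouse, as was that of Nop58. The Nop56 differences were 0.69 ± 0.17 (adjusted p = 0.0223) and 0.81 ± 0.20 (adjusted p = 0.0183), or 1.61-fold and 1.76-fold. In LIRKO livers Nop56 was already at 10.48 and 10.54 in 2 of 3 fasted mice, 9.72 in the remaining one, and between 10.35 and 10.64 in refed mice, for a difference of 0.31 ± 0.20 (adjusted p = 0.594).

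Nop58 showed the same ordering with a tighter LIRKO group. Nop58 was 8.78, 8.81, 8.96 and 9.23 in fasted and 9.37, 9.43, 9.64 and 9.75 in refed IR floxed livers. Fasted LIRKO livers had 9.58, 9.59 and 9.72, within the refed control range, and refed LIRKO livers 9.59, 9.63, 9.72 and 9.75. Its refeeding difference was 0.62 ± 0.16 in IR floxed (adjusted p = 0.023), 0.69 ± 0.18 in IR/FoxO1 floxed (adjusted p = 0.0278), 0.10 ± 0.18 in LIRKO (adjusted p = 0.917) and 0.62 ± 0.17 in LIRFKO livers (adjusted p = 0.051). Without IRF.fl_Fast_523 neither Nop56 (adjusted p = 0.141) nor Nop58 (adjusted p = 0.173) was called in the IR/FoxO1 floxed line. Rrp9, a U3-specific protein, rose by 0.53 in IR/FoxO1 floxed livers and had a difference of 0.35 in IR floxed ones. Fbl, the methyltransferase of the particle, had differences of 0.23 and 0.56, neither called.

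The box H/ACA particle guides the conversion of uridine to pseudouridine and also stabilises telomerase RNA. Of its 4 proteins only Dkc1, the pseudouridine synthase, rose, by 0.64 ± 0.16 in IR/FoxO1 floxed livers (adjusted p = 0.018). That call held without IRF.fl_Fast_523 (0.77, adjusted p = 0.0225) but was lost in 3 of 6 fits that left out 1 mouse. Its difference in IR floxed livers was 0.46. Nhp2 and Gar1 had differences between 0.44 and 0.50 in the control lines, and Nop10 had -0.13 and 0.25, none of them called.

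Among the nucleolar chaperones and phosphoproteins, Nolc1 (Nopp140, a chaperone of small nucleolar ribonucleoproteins) was the 1 of 5 that rose in IR floxed livers. Nolc1 was 8.09, 8.46, 8.64 and 8.76 in fasted and 9.04, 9.13, 9.32 and 9.38 in refed IR floxed livers, a difference of 0.78 ± 0.16 (1.71-fold, adjusted p = 0.00664). LIRFKO livers had 8.09, 8.68 and 8.89 when fasted and 9.20, 9.25, 9.42 and 9.65 when refed, a difference of 0.74 ± 0.17 (adjusted p = 0.0263), a call lost in 4 of 7 fits that left out 1 mouse. Neither pair of groups overlapped. In IR/FoxO1 floxed livers the difference was 0.64 ± 0.19 (adjusted p = 0.0561), and in LIRKO livers 0.28 ± 0.19 (adjusted p = 0.628). The other Nolc1 probe, with a mean of 6.52, gave smaller differences. They were 0.34 ± 0.15 in IR floxed, 0.29 ± 0.17 in IR/FoxO1 floxed, 0.20 ± 0.17 in LIRKO and 0.39 ± 0.16 in LIRFKO livers.

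Ncl and Ddx21 were, with Noc3l, the members of largest p on refeeding of IR floxed livers. Nucleolin (Ncl), which binds the precursor and its genes, was 10.59, 10.72, 10.87 and 10.93 in fasted and 10.54, 10.89, 11.00 and 11.28 in refed IR floxed livers, with overlap and a difference of 0.06 ± 0.16. Ddx21, a nucleolar RNA helicase, had 8.24, 8.79, 9.05 and 9.13 against 8.73, 8.78, 8.81 and 9.34, a difference of 0.07 ± 0.25. Its second probe gave 0.44 ± 0.15, and the difference between the probes was not tested. Noc3l, a factor of early large subunits, had 7.48, 7.64, 7.67 and 8.05 against 7.43, 7.52, 7.76 and 7.87. Npm1, the abundant granular chaperone nucleophosmin, had a difference of -0.27 ± 0.18 by the probe used and 0.36 ± 0.18 by 1 of its 4 other probes. The remaining Npm1 probes gave -0.41 ± 0.15, -0.24 ± 0.16 and -0.32 ± 0.22. By the probes used, the differences of Gnl2, Noc3l, Npm1 and Rcl1 were negative in both control lines, and the Npm1 probe with 0.36 was positive in both.

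Of the small subunit factors, Tsr1 rose on refeeding in both control lines. Tsr1, which holds late small subunits in an inactive state, was 7.48, 7.86, 7.88 and 8.04 in fasted and 8.37, 8.46, 8.46 and 8.59 in refed IR floxed livers. Fasted IR/FoxO1 floxed livers had 7.63, 7.73 and 7.80, and refed ones 8.25, 8.41 and 8.87. The groups were apart in both lines, with differences of 0.66 ± 0.15 (adjusted p = 0.0113) and 0.78 ± 0.17 (adjusted p = 0.00884). The second call was lost without IRF.fl_Fast_523, at an adjusted p of 0.0515. Fasted LIRKO livers had Tsr1 at 8.32, 8.40 and 8.41, and refed ones lay between 8.39 and 8.76, for a difference of 0.17 ± 0.17.

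Bysl, which acts late in small subunit maturation, rose in both lines with floxed FoxO1. Bysl was 9.21, 9.21 and 9.34 in fasted and 9.96, 10.18 and 10.22 in refed IR/FoxO1 floxed livers, a difference of 0.84 ± 0.15 (1.80-fold, adjusted p = 0.00136). In LIRFKO livers it was 9.09, 9.11 and 9.25 against 9.35, 9.67, 9.84 and 9.97, a difference of 0.55 ± 0.14 (adjusted p = 0.0325), a call lost in 6 of 7 fits that left out 1 mouse. In IR floxed livers the groups overlapped, from 9.07 to 9.63 when fasted and from 9.26 to 10.09 when refed. Rrp12 rose by 0.49 in IR floxed (lost in 5 of 8 such fits) and Noc4l by 0.40 in IR/FoxO1 floxed livers. The mean level of Rrp12, 6.25, was the lowest of the 37 members and close to the median gene level of 6.17. Rcl1, the cyclase-like endonuclease subunit, fell by 0.52 ± 0.15 in IR/FoxO1 floxed livers (adjusted p = 0.0441), a call lost without IRF.fl_Fast_523. The calls of Noc4l and Rrp9 in that line were lost too without IRF.fl_Fast_523 and under 4 other settings.

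The large subunit factors include the complex of Pes1, Bop1 and Wdr12, which is needed for maturation of the 28S end of the precursor. Wdr12 was 6.49, 6.55, 6.71 and 6.84 in fasted and 7.06, 7.13, 7.38 and 7.39 in refed IR floxed livers, and 6.56, 6.64 and 6.72 against 7.18, 7.46 and 7.52 in IR/FoxO1 floxed livers. Neither line overlapped, and the differences were 0.60 ± 0.12 (adjusted p = 0.00429) and 0.74 ± 0.14 (adjusted p = 0.00223). Both Wdr12 calls held without any single mouse and under all 8 other settings of the fit.

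Bop1 rose in both lines. It was 9.25, 9.56, 9.60 and 9.83 in fasted and 9.89, 9.94, 9.95 and 10.29 in refed IR floxed livers, a difference of 0.44 ± 0.12 (adjusted p = 0.0303). This call was lost in 5 of 8 fits that left out 1 mouse, without the array block, without the dye term and with an intensity trend. It was 9.36, 9.53 and 9.58 against 10.12, 10.26 and 10.46 in IR/FoxO1 floxed livers, a difference of 0.74 ± 0.13 (adjusted p = 0.00167), and that call held in every fit run. The difference between these responses was 0.30 ± 0.17 with an adjusted p of 1. Pes1 gave 0.09 ± 0.21 and 0.10 ± 0.24, with 8.42, 8.84, 9.15 and 9.17 in fasted and 8.76, 8.85, 8.95 and 9.21 in refed IR floxed livers.

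Grwd1, a histone-binding WD repeat protein, Gnl3 (nucleostemin, a nucleolar GTPase) and Nop2, a ribosomal RNA methyltransferase, completed the large subunit factors that rose. Grwd1 was 7.51, 7.71, 7.76 and 8.15 in fasted and 8.02, 8.34, 8.48 and 8.51 in refed IR floxed livers, with a small overlap and a difference of 0.58 ± 0.13 (adjusted p = 0.0113). In IR/FoxO1 floxed livers its difference was 0.64 ± 0.15 (adjusted p = 0.0142), and without IRF.fl_Fast_523 it was 0.61 and not called (adjusted p = 0.0767). Its other probe gave 0.49 ± 0.11 in IR floxed and 0.19 ± 0.12 in IR/FoxO1 floxed livers. Gnl3 was 7.93, 8.04, 8.09 and 8.27 in fasted and 8.62, 8.79, 8.90 and 9.16 in refed IR floxed livers, a difference of 0.81 ± 0.18 (1.76-fold, adjusted p = 0.0103). In IR/FoxO1 floxed livers Gnl3 had a difference of 0.39 ± 0.21 (adjusted p = 0.427). Nop2 rose by 0.67 ± 0.19 in IR floxed livers (adjusted p = 0.0478), a call lost in 6 of the 8 fits that left out 1 mouse.

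**Figure D3:**
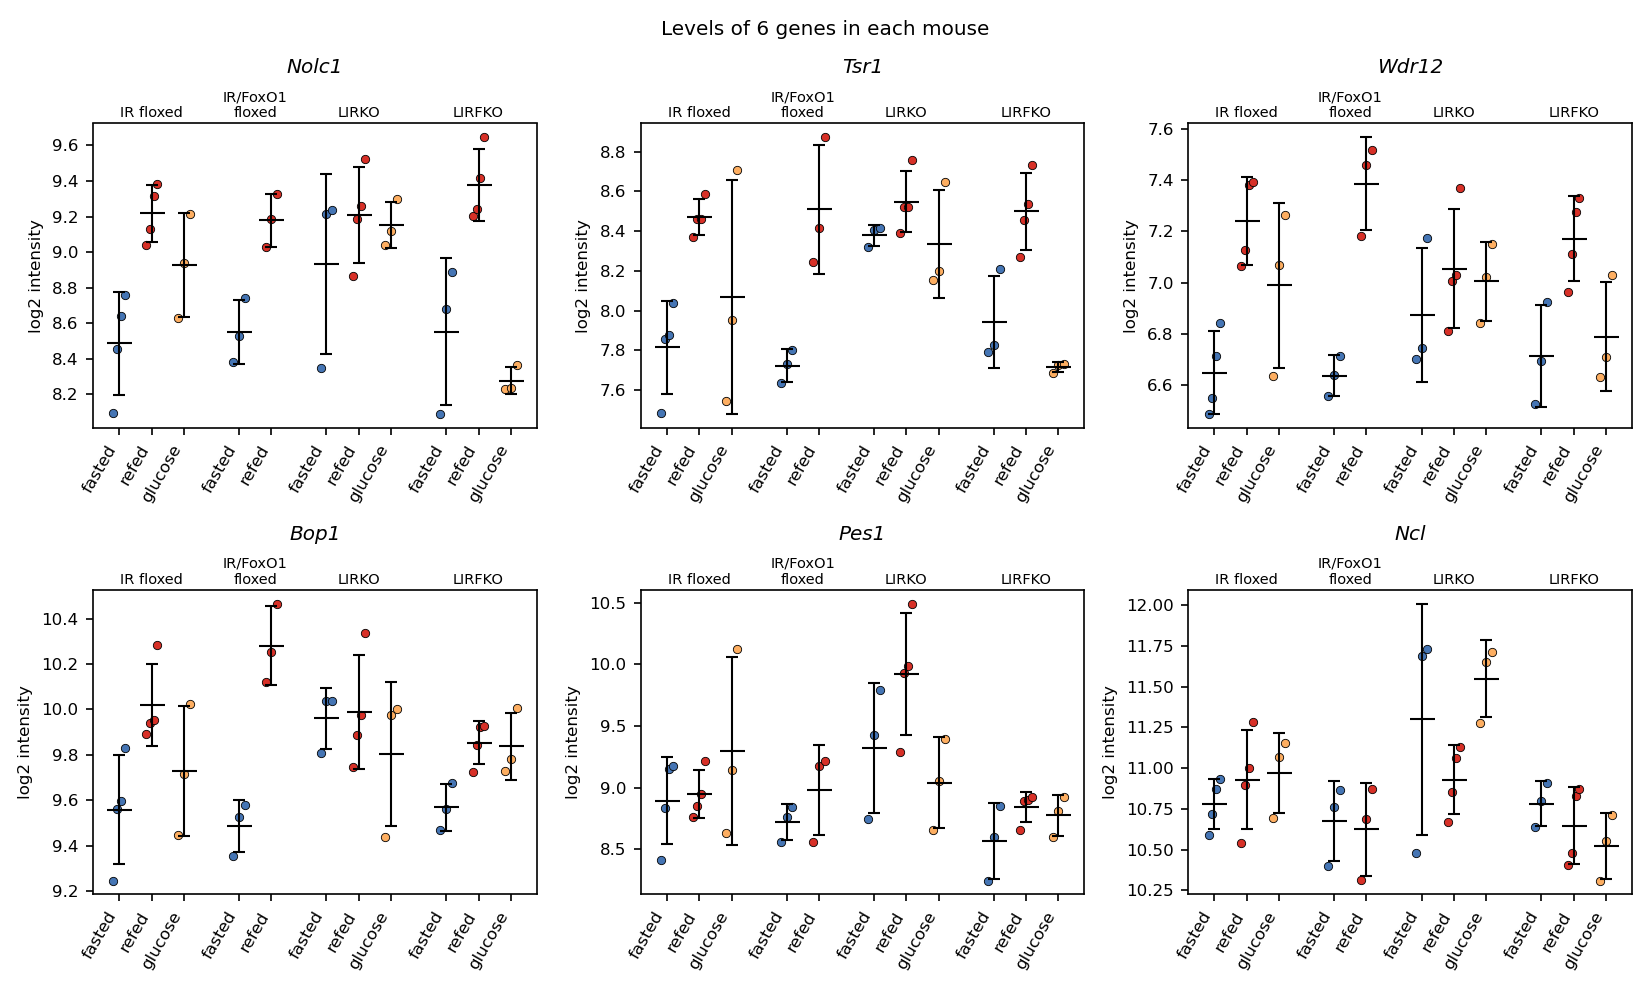
Log2 intensity (vertical axes) of Nolc1, Tsr1, Wdr12, Bop1, Pes1 and Ncl in each liver by group (horizontal axes), with bars at the mean ± SD. Wdr12 and Tsr1 are apart between fasted and refed floxed livers, whereas Ncl and Pes1 overlap there, and Pes1 lies at 9.29 to 10.49 in refed LIRKO livers.

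The promoters of the members were searched for 3 short elements. RefSeq windows on GRCm38.p6, from 250 bases before to 50 after the annotated start, were found for 31 of 37 genes (33 windows). Fbl, Gnl2, Rrp12, Rrs1, Npm1 and Bop1 had no entry. CACGTG, the E-box that Myc-Max dimers and other basic helix-loop-helix proteins bind, was in 7 of 33 windows (21.2%), against 7.15% of 32851 windows of the same length. CCGGAAGT, an ETS-type element, was in 8 of 33 (24.2%), against 3.89%. The longest element, the CGCG-centred palindrome that ZBTB33 (Kaiso) is known to bind, was in 0 of 33 (0.466% of all windows). All were searched on both strands. The windows of the members had a median GC content of 59.3%, against 52.7% over all windows, and the part of base composition in these shares was not tested. The matches in members that rose or fell in at least 1 comparison are shown with the element in capitals, 5′ to 3′ on the gene's strand (position 1 is the annotated start and -1 the base before it). The matches not shown were in members called in no comparison. They were E-boxes in Ltv1, Mybbp1a and Wdr43, and ETS-type elements in Ebna1bp2, Nip7, Ltv1, Nhp2 and Heatr1. Since the matches shown were picked by the calls, they do not link an element to a call. A match is a description of letters and not a bound site.
Nop2, E-box at -60, chr6:125131811-125131840 (+): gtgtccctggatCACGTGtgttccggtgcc
Grwd1, E-box at 35, chr7:45830740-45830767 (-): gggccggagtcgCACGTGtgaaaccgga
Pes1, E-box at 3, chr11:3963965-3963994 (+): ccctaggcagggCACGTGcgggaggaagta
Tsr1, E-box at 25, chr11:74898092-74898121 (+): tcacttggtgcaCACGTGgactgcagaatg
Gar1, ETS-type element on the opposite strand at -44, chr3:129831422-129831451 (-): cgcgccgccacACTTCCGGaaacgtcgcgt
Grwd1, ETS-type element at -39, chr7:45830810-45830839 (-): ggaggtgaaacCCGGAAGTgacgctctcac
Tsr1, ETS-type element at -1, chr11:74898068-74898097 (+): ctcgggtccgcCCGGAAGTagagttcactt

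Grwd1, Tsr1 and Ltv1 held both the E-box and the ETS-type element. Grwd1 and Tsr1 rose in both control lines, but their IR/FoxO1 floxed calls were lost without IRF.fl_Fast_523. Ltv1 was called higher on refeeding in 0 of 4 genotypes. Pes1 held an E-box and Gar1 an ETS-type element, and neither was called on refeeding in any genotype. Nolc1, with the second smallest p on refeeding of IR floxed livers, held none of the 3 elements. Its upstream sequence is shown beside that of Nop2, whose E-box is in capitals, for comparison.
Nolc1, chr19:46075597-46075846 (+): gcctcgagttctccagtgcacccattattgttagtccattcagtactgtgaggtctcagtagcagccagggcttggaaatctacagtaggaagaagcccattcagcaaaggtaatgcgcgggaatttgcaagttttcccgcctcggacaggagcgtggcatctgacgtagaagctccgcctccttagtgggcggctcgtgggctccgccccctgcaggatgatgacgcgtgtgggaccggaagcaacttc
Nop2, chr6:125131633-125131882 (+): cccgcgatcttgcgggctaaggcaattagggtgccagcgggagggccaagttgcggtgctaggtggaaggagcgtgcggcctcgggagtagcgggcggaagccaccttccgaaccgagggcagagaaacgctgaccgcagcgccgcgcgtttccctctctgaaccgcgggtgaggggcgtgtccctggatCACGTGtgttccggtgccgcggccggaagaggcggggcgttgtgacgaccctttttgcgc

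Whether refeeding differed between genotypes was tested directly. Counts of members by direction alone are given here without the share of all genes in that direction. Of the 37 genes, 32 had a smaller refeeding difference in LIRKO than in IR floxed livers, with a median of -0.33. limma called 0 of them (0.165% of all genes were called), and 10 had an unadjusted p under 0.05. The smallest p was that of Gnl3, whose difference between responses was -0.91 ± 0.26 (adjusted p = 0.19). LIRFKO responses were larger than LIRKO responses for 34 genes, with a median of 0.22. There limma called 0 (0.0222% of all genes), and 2 had an unadjusted p under 0.05. LIRFKO against IR/FoxO1 floxed responses had a median of -0.11 with 0 called (0.00445% of all genes) and 3 at an unadjusted p under 0.05. Between the control lines the median was 0.03 with 0 called (0.00445% of all genes) and 2 at an unadjusted p under 0.05. Misses of the threshold do not show that responses were alike, since the SE of these differences reached 0.40, for Ddx21. The LIRKO and IR floxed refeeding responses and the comparison of fasted livers that follows share the same fasted mice. The separate mouse numbers of fasted and refed LIRKO and IR/FoxO1 floxed mice, and of most LIRFKO mice, limit these differences between responses too.

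In fasted livers 5 of 37 genes were higher in LIRKO than in IR floxed mice and 0 were lower, where 8.06% of all genes were called, 4.14% higher and 3.92% lower. The median difference was 0.35. Gnl3 was 8.78, 8.85 and 9.0 in fasted LIRKO livers, above the 7.93 to 8.27 of fasted controls and within the refed control range. Its difference was 0.83 ± 0.20 (1.78-fold, adjusted p = 0.00838), and this call held without any single mouse. Nop2 was 10.57, 10.77 and 10.86 against 9.32, 9.76, 10.06 and 10.33, a difference of 0.84 ± 0.21 (adjusted p = 0.0109). Nop58 was higher by 0.61 ± 0.17 (adjusted p = 0.0245) and Tsr1 by 0.54 ± 0.16 (adjusted p = 0.0378), with every fasted LIRKO liver above every fasted control for both. The Tsr1 call was lost in 6 of 7 fits that left out 1 mouse, with slide as a block and without the array block. The Nop58 call was lost in 5 of those 7 fits and the Nop2 call in 2.

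Gar1, a core protein of the H/ACA particle, was 10.29, 10.47 and 10.79 against 9.28, 9.64, 10.10 and 10.36, with overlap. Its difference was 0.58 ± 0.17 (adjusted p = 0.033), a call lost in 4 of 7 fits that left out 1 mouse. The count of 5 became 2 without IR.KO_Fast_545 and 3 without IR.fl_Fast_491 or with slide as a block. It became 9 with the mean of all probes and 10 when genes below the median level were left out. Within slides the median was 0.21 and 0.47. Of 10 Kupffer cell and macrophage markers 0 were called in that comparison (median 0.35), and their mean level was 8.91 to 9.31 in fasted LIRKO and 8.56 to 8.93 in fasted IR floxed livers. Of 10 hepatocyte markers 2 were lower (median -0.19). The part of cell composition in the members' difference was not tested.

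After refeeding, 1 of 37 genes was higher in LIRKO than in IR floxed livers and 0 were lower (6.95% and 4.66% of all genes), with a median of 0.03. That gene was Pes1. It was 9.29, 9.93, 9.99 and 10.49 in refed LIRKO livers and 8.76, 8.85, 8.95 and 9.21 in refed controls, without overlap. The difference was 0.97 ± 0.21 (1.96-fold, adjusted p = 0.00229), and as the mean of both Pes1 probes it was 0.49, still called. That mean includes the probe used and is no separate check, and the other probe averaged 5.96, below the median gene level. The count was 3 without IR.fl_Refed_566, and 2 without IR.fl_Refed_506, without IRF.fl_Fast_523 or when genes below the median level were left out. In the same comparison 9 of 10 Kupffer cell and macrophage markers were higher (median 1.36), with mean levels of 9.53 to 9.75 against 8.17 to 8.43, and 4 of 10 hepatocyte markers were lower. Their part in the Pes1 difference was not tested. In refed LIRFKO livers Pes1 was 8.66, 8.89, 8.90 and 8.92, below every refed LIRKO liver.

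LIRFKO livers were set against LIRKO livers in all 3 states. These mice come from separate lines, so loss of FoxO1 and the line cannot be told apart. When fasted, 4 of 37 genes were lower and 0 higher (3.23% and 3.29% of all genes, 6.52% together), with a median of -0.27. Bysl was 9.09, 9.11 and 9.25 against 9.66, 9.86 and 9.93, lower by 0.57 ± 0.15 with no overlap (adjusted p = 0.0169). Ddx21 was 8.22, 8.55 and 9.19 against 9.55, 9.62 and 9.85, and fell by 1.06 ± 0.29 (adjusted p = 0.0244). Nop14, a scaffold of early small subunits, was 6.77, 6.91 and 7.0 against 7.22, 7.44 and 7.49 (adjusted p = 0.0424). Pes1 was 8.25, 8.60 and 8.85 against 8.75, 9.42 and 9.79, with overlap (adjusted p = 0.0337), and its call was lost with the mean of both probes. When 1 mouse was left out, the calls of Bysl, Ddx21, Nop14 and Pes1 were lost in 2, 4, 5 and 4 of 6 fits. Of 10 Kupffer cell and macrophage markers 0 were called there (median -0.37), and their part was not tested. The count of 4 became 0 without IRF.KO_Fast_525 or IR.KO_Fast_550, 1 without IRF.KO_Fast_518 or without the array block, and 2 without the dye term.

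When refed, 1 gene was lower and 0 higher (4.43% and 3.66% of all genes), with a median of 0.00. It was Pes1, which fell by 1.07 ± 0.21 (adjusted p = 0.0016), or by 0.59 as the mean of both probes, still called. That mean again includes the probe used and is no separate check. Of 10 Kupffer cell and macrophage markers 8 were lower there too (median -0.79), and their part was not tested.

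After glucose, 9 of 37 genes were lower in LIRFKO than in LIRKO livers and 0 higher (3.73% and 3.85% of all genes, 7.57% together), with a median of -0.37. The groups did not overlap for 21 genes, all lower, where 9.87% of all genes were lower without overlap. Ncl was 10.31, 10.55 and 10.71 against 11.28, 11.65 and 11.71, and fell by 0.89 ± 0.18 (adjusted p = 0.0029). Nolc1 was 8.23, 8.23 and 8.37 against 9.04, 9.12 and 9.30, and fell by 0.83 ± 0.19 (adjusted p = 0.00616). These calls held without any single mouse, and as means of all probes the differences were -0.55 and -0.47, still called. Each mean includes the probe used and is no separate check, and the other probes averaged 6.86 for Ncl and 6.52 for Nolc1.

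Nop56 was 9.47, 9.48 and 9.49 against 9.99, 10.53 and 10.77, and fell by 0.85 ± 0.20 (adjusted p = 0.00821). Ddx21 was 8.92, 8.96 and 9.36 against 10.13, 10.28 and 10.54, and fell by 1.18 ± 0.29 (adjusted p = 0.0107), or by 0.75 as the mean of both probes. Every LIRFKO liver was below every LIRKO liver for both genes. The others were Gnl3, Nop58, Gar1, Bysl and Rcl1, with differences from -0.72 to -0.51, each lost in 3 to 5 of 6 fits that left out 1 mouse, while Nop56 was lost in 1 and Ddx21 in 2. The count of 9 became 2 without IRF.KO_GTT_725 and 3 without IR.KO_GTT_697. The mice of both groups carry separate ranges of mouse numbers, and the 1 slide that held both gave a median of -0.51. Of 10 Kupffer cell and macrophage markers 0 were called there (median 0.04), and 2 of 10 hepatocyte markers were higher.

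LIRFKO livers were also set against their own floxed controls. When fasted 0 of 37 genes were called, where 0.00445% of all genes were, with a median of 0.14 and 1 gene at an unadjusted p under 0.05. When refed 0 were called (0.378% of all genes), with a median of 0.01 and 4 at an unadjusted p under 0.05. The fasted controls include IRF.fl_Fast_523, and without it limma also called 0 when fasted. Between the floxed lines limma called 0 members when fasted (0.0356% of all genes, 0.0222% higher and 0.0133% lower) and 0 when refed (0.0845%, 0.0712% higher and 0.0133% lower), with 0 and 4 at an unadjusted p under 0.05.

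Glucose for 60 min called 0 of 37 genes in each genotype tested. In IR floxed livers 0.160% of all genes were called, the median was 0.22 and 9 members had an unadjusted p under 0.05. In LIRKO livers the share was 0.596% (0.325% higher, 0.271% lower), the median -0.05 and the number 6. In LIRFKO livers they were 0.654%, -0.19 and 7. The IR floxed glucose livers spread widely, with means over the members of 8.83, 9.13 and 9.46, and within slides their median was 0.67 on one slide and -0.22 on another. Their pancreatic acinar markers averaged between 6.07 and 11.1, and the part of that tissue was not tested. Without IR.fl_GTT_659, 3 members were called. Every glucose mouse carries a higher mouse number than any fasted or refed mouse, so treatment and the series of mice cannot be told apart. LIRKO minus IR floxed after glucose gave 0 called (8.30% of all genes, 4.39% higher and 3.91% lower) with 8 at an unadjusted p under 0.05, and 4, 2 and 1 without IR.fl_GTT_699, IR.KO_GTT_667 and IR.fl_GTT_659. Of differences in the glucose response itself, limma called 0 between LIRKO and IR floxed livers ( 0.00% of all genes, 9 at an unadjusted p under 0.05) and 0 between LIRFKO and LIRKO livers (0.0578% of all genes, 3 at an unadjusted p under 0.05).

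Other assembly factors, 84 genes of the same pathway outside the 37, had positive median differences on refeeding of the control lines. In IR floxed livers 12 rose and 1 fell, with a median of 0.20, and in IR/FoxO1 floxed livers 8 rose and 1 fell, with a median of 0.21, which was 0.14 with 3 genes called without IRF.fl_Fast_523. In LIRKO livers 0 were called and in LIRFKO livers 1 rose. Gtpbp4, a GTPase of early large subunits, rose by 0.63 ± 0.15 and 0.61 ± 0.17 in the control lines (adjusted p = 0.0153 and 0.0447), the second being 0.47 and not called without IRF.fl_Fast_523 (adjusted p = 0.299). Utp20, a scaffold of the small subunit precursor, rose by 0.36 and 0.49, and Mak16, a large subunit factor, rose by 0.62 in IR/FoxO1 floxed and 0.49 in LIRFKO livers. Without IRF.fl_Fast_523 Utp20 was still called there (adjusted p = 0.0207) and Mak16 was not (adjusted p = 0.0842). Efl1, a GTPase that frees late large subunits for translation, fell by 0.43 ± 0.10 in IR floxed livers. The counts of 13 and 9 ranged from 3 to 15 and from 2 to 5 when 1 mouse was left out, were 5 and 5 without the array block, and were 8 and 5 without the dye term. Counts lower by over 1.5 times came without IR.fl_Fast_491, IR.fl_Fast_542, IR.fl_Fast_552, IR.fl_Refed_506, IR.fl_Refed_562 or IR.fl_Refed_566 in IR floxed livers, and without each of the 6 mice in the other line.

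RNA polymerase I and its factors had 1 gene that rose among 11 measured in each of IR floxed, IR/FoxO1 floxed and LIRFKO livers, and 0 in LIRKO livers. It was Polr1e, which codes for a polymerase I subunit, with 0.61 ± 0.12 (adjusted p = 0.00436), 0.89 ± 0.14 (adjusted p = 0.000556) and 0.48 ± 0.13 (adjusted p = 0.0491), beside 0.20 ± 0.14 in LIRKO livers (adjusted p = 0.648). Without IRF.fl_Fast_523 the second was 0.84 (adjusted p = 0.00659). Polr1b, the second-largest subunit and the member of the 37 for this step, had differences of 0.30, 0.34, -0.15 and 0.03, none called.

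Of 11 genes of the Myc network 1 rose and 1 fell in each control line. Mlx, a Max-like partner of glucose-sensing factors, rose by 0.80 ± 0.12 and 0.78 ± 0.13, and Mycl fell by 0.68 ± 0.09 and 0.56 ± 0.11. Both calls of the second line held without IRF.fl_Fast_523 (adjusted p = 0.00793 and 0.0376). Myc was 6.38, 6.55, 6.74 and 7.02 in fasted and 6.08, 6.50, 6.55 and 7.16 in refed IR floxed livers, with overlap and a difference of -0.19 ± 0.37. In fasted LIRKO livers Myc was 7.38, 7.78 and 7.93, above every fasted IR floxed liver, but the difference of 0.93 ± 0.39 had an adjusted p of 0.166. limma called Myc in 0 of the 23 comparisons.

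Among 15 measured genes of mTORC1 and its regulators, Ddit4, an inhibitor of the pathway, fell by 3.11 ± 0.74 (adjusted p = 0.0153) in refed IR floxed livers. Its differences were -1.88 ± 0.84, -3.07 ± 0.84 and -1.65 ± 0.79 in IR/FoxO1 floxed, LIRKO and LIRFKO livers, none called. Mlst8, a shared mTOR subunit, rose by 0.60 ± 0.13 in IR/FoxO1 floxed livers, while Rptor, the scaffold that defines mTORC1, and the inhibitor Sesn3 rose by 0.44 ± 0.08 and 0.68 ± 0.16 in LIRKO livers. Of 15 genes of purine and pyrimidine synthesis, Umps, the bifunctional last enzyme of UMP synthesis, rose in all 4 genotypes, by 0.51, 0.67, 0.95 and 0.71, the LIRKO value having an adjusted p of 3.72e-05. Ctps rose by 1.04 ± 0.26 in IR/FoxO1 floxed and Dhodh by 0.54 ± 0.14 in IR floxed livers. Eef1e1, a factor bound to the tRNA synthetase complex, was the 1 of 16 translation factors that rose in both control lines, by 0.52 and 0.69. Without IRF.fl_Fast_523 the IR/FoxO1 floxed calls of Mlst8 (adjusted p = 0.0303) and Umps (adjusted p = 0.00361) held, and those of Ctps (0.72, adjusted p = 0.235) and Eef1e1 (0.66, adjusted p = 0.0883) were lost. Of 11 proliferation genes 0 were called on refeeding in the control lines or LIRKO livers, and Mcm3 and Mcm2, subunits of the replicative helicase, rose by 1.0 and 0.98 in LIRFKO livers.

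Cytosolic ribosomal protein genes were called where LIRKO livers were compared with IR floxed or LIRFKO livers, and not between feeding states. On refeeding and after glucose limma called 0 of 70 in every genotype tested, with 2 to 4 at an unadjusted p under 0.05. Of all genes, 0.160% to 3.61% were called in those comparisons. In LIRKO against IR floxed livers, 45 of 70 were higher and 0 lower when fasted (median 0.51), 52 and 0 when refed (median 0.56), and 38 and 0 after glucose (median 0.46). Of all genes, 4.14%, 6.95% and 4.39% were higher in these comparisons. Kupffer cell and macrophage markers were called higher in 0, 9 and 1 of 10 there, and hepatocyte markers lower in 2, 4 and 4 of 10. After glucose the mean level of the former was 8.83 to 9.37 in LIRKO and 8.06 to 8.70 in IR floxed livers, and that of the latter 14.3 to 14.9 and 14.9 to 15.2. Their part in the ribosomal protein differences was not tested. In LIRFKO against LIRKO livers 20, 26 and 29 were lower and 0 higher, with medians of -0.36, -0.34 and -0.42, where 3.23%, 4.43% and 3.73% of all genes were lower. Kupffer cell and macrophage markers were lower in 0, 8 and 0 of 10 there. Against their own floxed controls 0 were called in LIRFKO livers, with 0 at an unadjusted p under 0.05 when fasted and 21 when refed. Few genes of any kind were called there, 0.00445% of all genes when fasted and 0.378% when refed. Rps6, a small subunit protein phosphorylated downstream of mTORC1, had the smallest p of the 70 in fasted LIRKO against IR floxed livers, 0.72 ± 0.11 with an adjusted p of 9.93e-05, and it was picked after its value was seen. Many ribosomal protein genes have near-identical pseudogene copies, so single values are uncertain.

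The ribosomal protein medians kept their sign under all 8 other settings, while the counts moved. Left-out mice gave 23 to 49, 43 to 57 and 21 to 32 genes in the 3 LIRKO comparisons, and 2 to 26, 12 to 24 and 3 to 29 in the 3 LIRFKO ones. The fasted LIRKO count was 23 without IR.KO_Fast_550 and 25 without IR.fl_Fast_486, and the glucose count was 21 without IR.KO_GTT_690 and 23 without IR.fl_GTT_659 or IR.fl_GTT_691 or IR.KO_GTT_667. The fasted LIRFKO count was 2, 3, 11 and 13 without IRF.KO_Fast_518, IR.KO_Fast_550 and IR.KO_Fast_545 and IRF.KO_Fast_525. The refed one was 12 without IRF.KO_Refed_468, 13 without IR.KO_Refed_564, 14 without IRF.KO_Refed_478 or IR.KO_Refed_565, and 17 without IR.KO_Refed_553 or IRF.KO_Refed_469. The glucose one was 3 without IRF.KO_GTT_725, 17 without IR.KO_GTT_697, and 19 without IRF.KO_GTT_726 or IR.KO_GTT_690. Without the array block the LIRFKO counts were 6, 14 and 19 and the LIRKO glucose count was 23. Without the dye term the fasted and refed LIRFKO counts were 11 and 16. In fasted LIRKO livers, where 63 of 70 ribosomal protein genes had an unadjusted p under 0.05, 17 of the 37 assembly genes did. Neither count has the share over all genes beside it, so neither shows an excess over other genes. Translation factors were higher in 5, 3 and 3 of 16 in the same 3 comparisons, and proliferation genes in 3, 6 and 1 of 11.

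**Figure D4:**
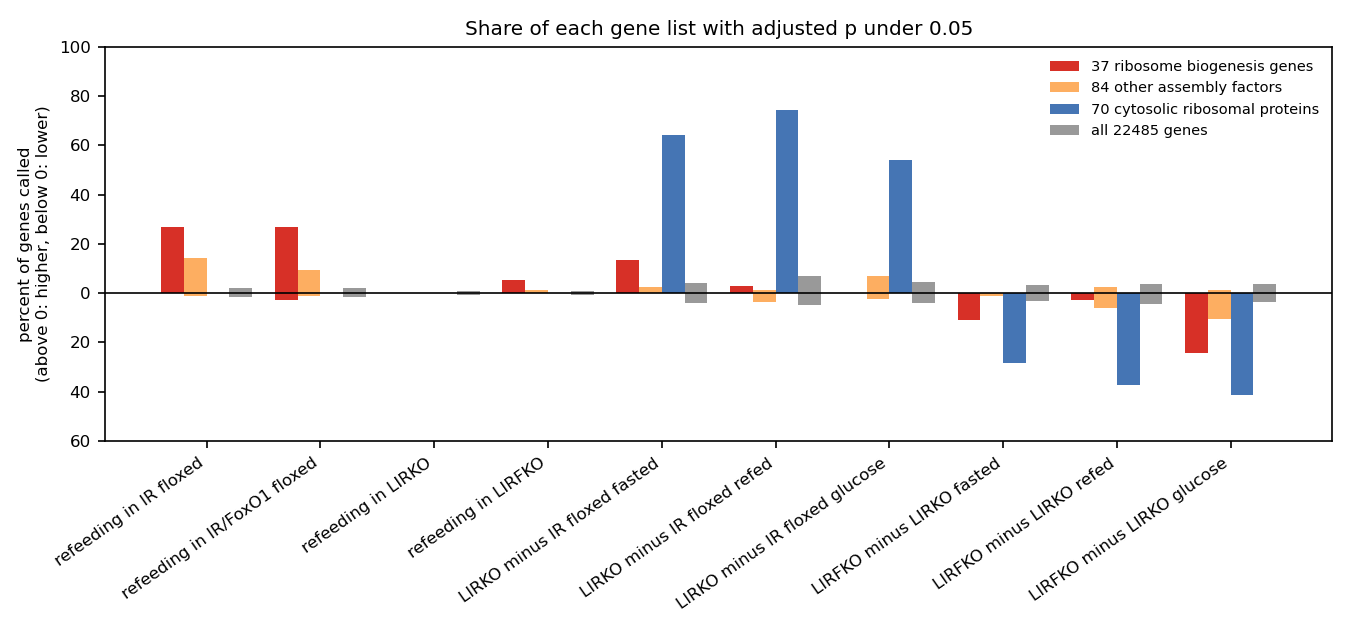
Percent of the measured genes of each list called higher (above 0) or lower (below 0) at an adjusted p under 0.05 (vertical axis) in each comparison (horizontal axis), beside the percent over all genes. The 37 members reach 27.0% higher on refeeding of both floxed lines, where cytosolic ribosomal proteins are at 0, and those reach 64.3%, 74.3% and 54.3% in LIRKO against IR floxed livers.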

How the data were processed

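Liver RNA (200 ng) of 38 mice was hybridised to 2-colour Agilent arrays, with each mouse in 1 dye channel of 20 arrays on 5 slides. The deposited values are log2 intensities of single channels, made by the authors with R 3.1.0 and limma 3.20.1, per the submitters' processing notes. Which background correction and normalization they ran is not stated there. Of 45220 features, 33026 had 1 gene in the platform annotation and 12194 had none, which left 22485 genes after the probe of highest mean was taken for each. One library, IRF.KO_GTT_724, whose labels conflict, was left out, so 37 entered the fit.

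All 11 groups were fitted together in limma 3.58.1 (statmod 1.5.0, R 4.3.3) with a dye term, and the array entered as a random block whose consensus correlation was 0.358, and p-values were adjusted by Benjamini-Hochberg over all genes in each of 23 comparisons. Mouse numbers mark separate animals. The number of arrays limits the precision. The script was tested on simulated data. Alternatives were slide as a block, no array block, no dye term, the mean of all probes, genes above the median level only, a new quantile normalization, an intensity trend with robust prior, IRF.fl_Fast_523 left out of every fit, within-slide values and each mouse left out in turn.

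The members, gene lists and alternatives were chosen with earlier results of these data known. Values per mouse are given for members called in at least 2 refeeding comparisons (up to 12), up to 4 called members of smallest p in every other comparison, the 3 members of largest p on refeeding of IR floxed livers, Myc, Insr and Foxo1. From each other list up to 4 genes called on refeeding were named by smallest p. Other genes named were picked after their values were seen.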

Additional observations from a re-analysis of the deposited data

Results flagged for a closer look

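In 80 sets of 4 mice (one gene in one group), 6 held a mouse far from the other 3 by Dixon's ratio, and chance gives about 1 in 20. Bop1 was 10.29 in IR.fl_Refed_566, against 9.89 to 9.95 in the others, and Ddx21 was 9.34 in the same mouse, against 8.73 to 8.81. Ddx21 was 9.05 in IR.KO_Refed_565, against 9.27 to 9.29. Pes1 was 8.66 in IRF.KO_Refed_469, against 8.89 to 8.92. Foxo1 was 9.98 in IR.fl_Fast_491, against 10.44 to 10.50. Myc was 9.80 in IRF.KO_Refed_468, against 7.20 to 7.62.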

How the results depend on the processing

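No called difference of a member changed sign under any alternative run, but medians near 0 did: within slides that of glucose in LIRKO was 0.0044 against -0.05, and that of IR/FoxO1 floxed minus IR floxed refed was -0.08 against 0.04. In other fits, other medians near 0 changed sign too. With slide as a block, the counts called were 7 for refeeding in IR/FoxO1 floxed, 1 for refeeding in LIRFKO and 3 for LIRKO minus IR floxed when fasted. Without the array block they were 1 for refeeding in LIRFKO, 1 for LIRKO minus IR floxed after glucose and 1 for LIRFKO minus LIRKO when fasted. Without the dye term they were 7 and 1 for refeeding in IR/FoxO1 floxed and LIRFKO, and 2 for LIRFKO minus LIRKO when fasted. The mean of all probes gave 9 for LIRKO minus IR floxed when fasted. With genes above the median level only, refeeding in LIRFKO gave 4, and LIRKO minus IR floxed gave 10, 2 and 2 when fasted, refed and after glucose. Without IRF.fl_Fast_523 refeeding in IR/FoxO1 floxed gave 4 and LIRKO minus IR floxed refed gave 2. Within slides the LIRFKO minus LIRKO median after glucose was -0.51. The new quantile normalization changed none of the 23 counts, and the intensity trend changed 3 by less than 1.5 times, to 9 and 8 for refeeding in IR floxed and IR/FoxO1 floxed and to 6 for LIRKO minus IR floxed when fasted. With each mouse left out, counts ranged from 5 to 10 for refeeding in IR floxed, 3 to 8 in IR/FoxO1 floxed and 0 to 3 in LIRFKO. They ranged from 0 to 3 for glucose in IR floxed and 0 to 1 in LIRKO (1 without IR.KO_GTT_667 or IR.KO_GTT_697). For LIRKO minus IR floxed they ranged from 2 to 6 fasted, 1 to 3 refed and 0 to 4 after glucose. For LIRFKO minus LIRKO they ranged from 0 to 4 fasted, 1 to 1 refed and 2 to 8 after glucose. The cause of these moves was not tested. The alternatives for the other assembly factors, the ribosomal proteins and other listed genes were chosen after seeing the data. No paired analysis was possible because the groups share no mouse numbers. Signal over background was not tested, since the deposited values carry no background.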

Other observations

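The library left out of every comparison, IRF.KO_GTT_724, had a mean of 8.94 over the 37 genes, with Insr at 6.51, Foxo1 at 6.80 and Myc at 6.80.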
